A study of Mus musculus with 54 samples.

Results

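The 40 genes described here belong to the amino acid response that the transcription factor ATF4 drives. They were picked by symbol from 55487 genes counted in mouse embryonic stem cells: transcription factors of the pathway, stress effectors, enzymes and transporters of amino acids, secreted factors, and genes of lipid and tRNA handling. Several of them were picked because they stood far lower in the empty-vector libraries of the Ezh2 series, so their values in that contrast are given as a description and are not tested. Messenger RNA was counted near its 3′ end (QuantSeq) in 54 libraries of 18 groups, 3 libraries a group, in 2 series of 27. In the Ezh2 series, Ezh1-/-;Ezh2-/- cells of 129P2/Ola origin carried an empty PiggyBac vector (EV), PiggyBac-Ezh2 (WT), or PiggyBac-Ezh2 with the changes K510R, K514R and K515R (amKR). In the Suz12 series, SUZ12-/- cells carried an empty vector (EV), SUZ12 (WT) or the form called SUZ12-deltadim (ddim). Day 0 cells grew in serum with LIF and the inhibitors CHIR99021 and PD0325901. Cells of days 1 and 4 grew for that time with 0.1 µM retinoic acid and without those 3 factors. Glutamine and non-essential amino acids were part of the culture medium per the labels' growth protocol. Retinoic acid drives differentiation, and the study asks what PRC2 contributes to it, a silencing complex in which Ezh2 or Ezh1, held by Suz12, methylates lysine 27 of histone H3. Every line is labelled as knockout cells with a vector, empty or carrying the gene; the labels do not say how many clones each line is, and an unedited parent line was not analysed here.

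When cells lack an amino acid or their endoplasmic reticulum is overloaded, kinases such as GCN2 and PERK phosphorylate the initiation factor eIF2alpha. General translation then falls while translation of Atf4 mRNA rises, and ATF4, usually paired with a C/EBP protein, binds composite C/EBP-ATF response elements (CARE) near genes that make, import and charge amino acids. The same program feeds back on itself through Trib3, which inhibits ATF4, and Ppp1r15a, which brings a phosphatase back to eIF2alpha. ATF4 protein is set largely at translation, so Atf4 mRNA is not a measure of it.

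The letters of that element are written in some of these promoters. A window of 250 bases before to 50 bases from the RefSeq transcript start (GRCm38.p6, the assembly that mm10 names) was available for 35 of the 40 genes, and 12 of them (34.3%) held TGATGNAA, the core of CARE, on either strand. Of 26990 other genes with a window, 4.47% held it. The 40 genes were picked as genes of the ATF4 response, so the choice favoured this outcome and nothing is read from the shares. TGATGNAA on the reverse strand reads TTNCATCA, and the search allowed no mismatch and no overlap with another motif. The stretches of 30 bases below come from genes whose levels the results turn on, 5′ to 3′ on the strand of the gene, with the core in capitals.
Trib3: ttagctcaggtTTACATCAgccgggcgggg
Chac1: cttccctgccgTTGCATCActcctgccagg
Nupr1: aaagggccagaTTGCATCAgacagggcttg
Jdp2: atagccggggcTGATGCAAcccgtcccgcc
Asns: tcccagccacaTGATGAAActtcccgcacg
Pck2: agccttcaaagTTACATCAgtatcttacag
Slc7a11 (distal): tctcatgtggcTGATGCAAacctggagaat
Slc7a11 (proximal): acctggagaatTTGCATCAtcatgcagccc
Slc1a4: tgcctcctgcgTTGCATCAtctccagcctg
Vldlr: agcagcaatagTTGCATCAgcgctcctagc

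These stretches lie at chr2:152344028-152344057 on the minus strand (Trib3), chr2:119351038-119351067 on the plus strand (Chac1), chr7:126625562-126625591 on the minus strand (Nupr1), chr12:85599372-85599401 on the plus strand (Jdp2) and chr6:7693214-7693243 on the minus strand (Asns). Those of the others lie at chr14:55540152-55540181 on the plus strand (Pck2), chr3:50443661-50443690 and chr3:50443642-50443671 on the minus strand (Slc7a11), chr11:20332699-20332728 on the minus strand (Slc1a4) and chr19:27216809-27216838 on the plus strand (Vldlr). Counted from the RefSeq transcript start, the core began close by in Jdp2 (position -33), Asns (-23), Slc1a4 (-4) and Trib3 (15, inside that transcript). It began farther upstream in Slc7a11 (-66 and -47), Pck2 (-103), Nupr1 (-110), Chac1 (-193) and Vldlr (-200). The GENCODE gene positions used elsewhere start at other bases for some genes. By them the Trib3 core lies upstream of the gene, and the cores of Jdp2, Asns, Nupr1 and Vldlr lie inside it. Slc7a11 holds a pair of cores in 1 window, in opposite orientations. Pycr1, Inhbe and Fgf21 also held the core. Atf4, Ddit3, Psat1 and 20 more genes had a window without these letters. A match is a description of the letters, not of binding.

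Counts on annotated genes ranged from 3801446 to 5111007 per library, and levels are given in CPM, gene counts per library brought to a common size, scaled within each series. Of the 40 genes, 38 passed the filter on low counts in the Ezh2 series (not Slc6a9, a glycine transporter, and Fgf21, a secreted hormone) and 35 in the Suz12 series (not those 2, nor Aldh1l2, Slc7a11 and Inhbe). The libraries labelled EV of the Ezh2 series go against their genotype label: Ezh1 averaged 9.29, 6.37 and 5.58 CPM on days 0, 1 and 4 there, against at most 0.289 CPM in any WT or amKR group, and Ezh2 averaged 183, 192 and 128 CPM there against 88.3, 231 and 33.1 CPM in WT. Ezh2 was thus higher than in the add-back on days 0 and 4, by 1.05 and 1.95 on the log2 scale. Whether these libraries come from the line that the label names cannot be told from the files. A 3′ read outside the deleted part checks nothing about protein, and what these reads mean for the line was not tested. They are called "labelled EV" below. In the Suz12 series Suz12 averaged 68.1 CPM in EV and 439 CPM in WT on day 0. The log2 difference between EV and WT was -2.69 on day 0 but -0.88 on day 1 and -0.85 on day 4. Suz12 in WT itself changed by -2.18 and -2.95 from day 0 to days 1 and 4. Tests are edgeR's quasi-likelihood test, adjusted over all genes tested, with an adjusted p under 0.05 taken as a call, and errors of log2 changes are standard errors (SE). Whether the 3 libraries of a group are separate cultures is not stated, so p-values cover library-to-library spread alone, which may be technical. Fewer cells of a kind and less RNA per cell cannot be told apart in these bulk libraries.

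In the Ezh2 series most of these genes stood lower in the libraries labelled EV than in WT on day 0 already. The median difference was larger on days 1 and 4. Retinoic acid, the absence of LIF and the inhibitors, and time in culture differ together between day 0 and the later days and cannot be told apart. On day 1 the lines overlapped for Slc38a2, Slc7a3, Slc7a5 and Soat2, and on day 4 Cbs was higher in labelled EV. Of the 38 genes, 37 had their lowest group mean in a labelled-EV group (16 on day 1, 20 on day 4 and 1 on day 0). The exception was Cbs, lowest in WT on day 4. The choice of genes favoured this outcome and the share of all genes was not counted, so nothing is read from it. All 3 labelled-EV libraries lay below all 3 WT libraries for 25 genes on day 0, 34 on day 1 and 34 on day 4, where 18.5%, 14.7% and 14.1% of all genes tested did so, and since the rule used this contrast nothing is read from these counts. The median log2 difference over the 38 genes was -0.59, -1.94 and -2.10 on the 3 days, against 0.04, 0.07 and 0.01 over all genes tested.

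Among the transcription factors, Atf4 (chr15:80255184-80257541) itself was lower. Its level was 1220, 1180 and 1110 CPM in the 3 WT libraries of day 0, 839, 764 and 885 on day 1, and 644, 717 and 739 on day 4. In the libraries labelled EV it was 883, 914 and 1100 CPM on day 0, 286, 288 and 318 on day 1, and 258, 320 and 306 on day 4. The groups almost touch on day 0 and are far apart afterwards. Ddit3 (CHOP, chr10:127290774-127296288), the partner factor linked to cell death under stress, was low in every line: 20.5, 21.8 and 23.3 CPM in WT and 15.6, 14.4 and 18.6 CPM in labelled EV on day 0. On day 1 it stood at 4.5, 7.54 and 5.61 CPM in WT and at 2.11, 1.36 and 3.59 CPM in labelled EV, and on day 4 at 10.7, 11 and 9.55 against 5.24, 7.42 and 8.27 CPM. Ddit3 thus dipped on day 1 in both lines, without overlap between them on any day. Jdp2, a repressor of the AP-1 family, stood at 39.8, 31.2 and 42.4 CPM in WT and at 5.38, 2.49 and 2.63 CPM in labelled EV on day 1. All 6 transcription factors were lower without overlap on day 1 and 5 of 6 on day 4, where Cebpg, a dimerization partner of ATF4, overlapped. Ddit3 overlaps Mars on the opposite strand by 68 exon bases near its 3′ end, and whether counting used strand is not given in the sources used here.

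Among the stress effectors 3 genes stood far lower on day 1. Trib3 (chr2:152337422-152344032), the pseudokinase that restrains ATF4, was at 114, 108 and 117 CPM in WT on day 1 and at 6.55, 4.07 and 8.38 CPM in labelled EV. Chac1 (chr2:119351229-119354381), which degrades glutathione, was at 100, 84.2 and 66.4 CPM against 3.51, 4.29 and 5.03 CPM on that day. Nupr1 (chr7:126623249-126630861), a small stress-induced chromatin protein, was at 80.5, 79.9 and 92.4 CPM against 3.74, 4.75 and 7.18 CPM. For all 3 the labelled-EV libraries held a small fraction of the WT level, and the log2 differences were -4.16, -4.28 and -4.01. By day 4 they were -4.37, -4.43 and -4.94. On day 0 the same genes stood at 83.8, 78.9 and 97.5 CPM (Trib3), 30.4, 58.6 and 71.8 CPM (Chac1) and 91.6, 101 and 121 CPM (Nupr1) in labelled EV, below the WT libraries at log2 differences of -0.96, -1.36 and -0.97. Sesn2 and Ddit4, which restrain mTORC1, and Ppp1r15a completed the group, in which 6 of 6 genes were lower without overlap on days 0 and 1 and 5 of 6 on day 4. Ddit4 reached a log2 difference of -1.01 on day 0.

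The 14 enzymes were all lower without overlap on day 1 and 13 of 14 on day 4. Asns (chr6:7675169-7693254), which makes asparagine, was at 1650, 1660 and 1590 CPM in WT on day 0, 874, 871 and 919 on day 1, and 950, 1060 and 903 on day 4. In labelled EV it was at 1070, 1120 and 1140 CPM, then 294, 292 and 309, then 147, 188 and 155. Its log2 differences were -0.55, -1.57 and -2.57, and the other genes of its chromosome, 6, had a median of -0.27, -0.25 and -0.33 in the same contrast, a shift that is large beside the day 0 difference in Asns. Mthfd2 (-0.72, -2.48 and -2.82) and Bcat1 (-0.16, -0.58 and -2.98) lie on that chromosome too. Psat1 (chr19:15904678-15947337), the aminotransferase of serine synthesis, differed in shape: 347, 411 and 324 CPM in WT and 365, 453 and 487 CPM in labelled EV on day 0, overlapping. On day 1 it was at 402, 397 and 404 against 98.8, 102 and 111 CPM, and on day 4 at 425, 523 and 440 against 91.9, 121 and 85.9 CPM. The gap in Psat1 is thus seen after day 0 only. Phgdh, the entry enzyme of that pathway, was higher in labelled EV on day 0 without overlap (19.2, 25.2 and 22.8 against 15.8, 11.8 and 15.6 CPM, a log2 difference of 0.64). Pck2, the mitochondrial PEP carboxykinase, showed a log2 difference of -3.56 on days 1 and 4. Aldh1l2, a mitochondrial folate enzyme, reached -4.11 on day 4 and -1.27 on day 0. Its last 500 exon bases lie opposite D10Wsu102e, so its counts are uncertain. Cbs, which starts transsulfuration of homocysteine, went from -1.06 on day 0 to 0.97 on day 4, where all 3 labelled-EV libraries (3.22, 5.79 and 4.53 CPM) lay above WT (1.94, 2.17 and 2.84 CPM).

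Transporters split. Slc7a11 (xCT, chr3:49892526-50443614), the cystine importer, was at 26.1, 34.7 and 28.7 CPM in WT and at 0.234, 0.226 and 0.718 CPM in labelled EV on day 1, a log2 difference of -6.17. On day 4 it was at 55.6, 34.1 and 34.7 against 0.605, 1.09 and 1.18 CPM (-5.39), and on day 0 at 22.9, 15.7 and 27.8 against 10.7, 11.8 and 11.5 CPM (-0.96). Slc7a11 was close to undetected in labelled EV after day 0. In contrast Slc7a5 (LAT1), an importer of large neutral amino acids, was higher in labelled EV on day 0, at 63.3, 72.3 and 45.7 against 29.2, 20.7 and 28 CPM (1.22), overlapped on day 1, and was lower on day 4. Slc7a3, an importer of cationic amino acids, was at 161, 170 and 127 CPM in labelled EV against 112, 63.2 and 119 in WT on day 0 (0.64). It stood at 251, 264 and 175 against 231, 291 and 216 CPM on day 1, where the lines overlap, and at 6.85, 3.98 and 4.14 against 147, 103 and 65.4 CPM on day 4 (-4.40). Of the 7 transporters tested, 4 were lower without overlap on day 1 and 7 on day 4. Slc38a2 (SNAT2), another target of the amino acid response, overlapped on day 1, at 314, 289 and 292 CPM in labelled EV and 300, 298 and 286 CPM in WT.

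Of the remaining genes, Vldlr (chr19:27216484-27254231), a lipoprotein receptor, was at 27, 29.3 and 23.5 CPM in WT and at 0.936, 1.81 and 0.479 CPM in labelled EV on day 1 (-4.58). Stc2, a secreted glycoprotein induced by endoplasmic reticulum stress, had a log2 difference of -3.30 on day 4. Inhbe, a subunit of activin E, was at 22.9, 25 and 15.6 CPM in WT and at 4.14, 2.36 and 1.65 CPM in labelled EV on day 0 (-2.96). On day 1 its labelled-EV libraries together held 1 count against 198 in WT, a ratio of 188 with a counting interval of 33.4 to 7470. Soat2, which esterifies cholesterol, and Xpot, which exports tRNA from the nucleus, overlapped on day 1 and day 4, respectively. On day 1 the 8 largest differences among genes above 5 CPM in WT were those of Inhbe, Slc7a11, Vldlr, Chac1, Trib3, Nupr1, Pck2 and Jdp2 (-3.42).

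**Figure D1:**
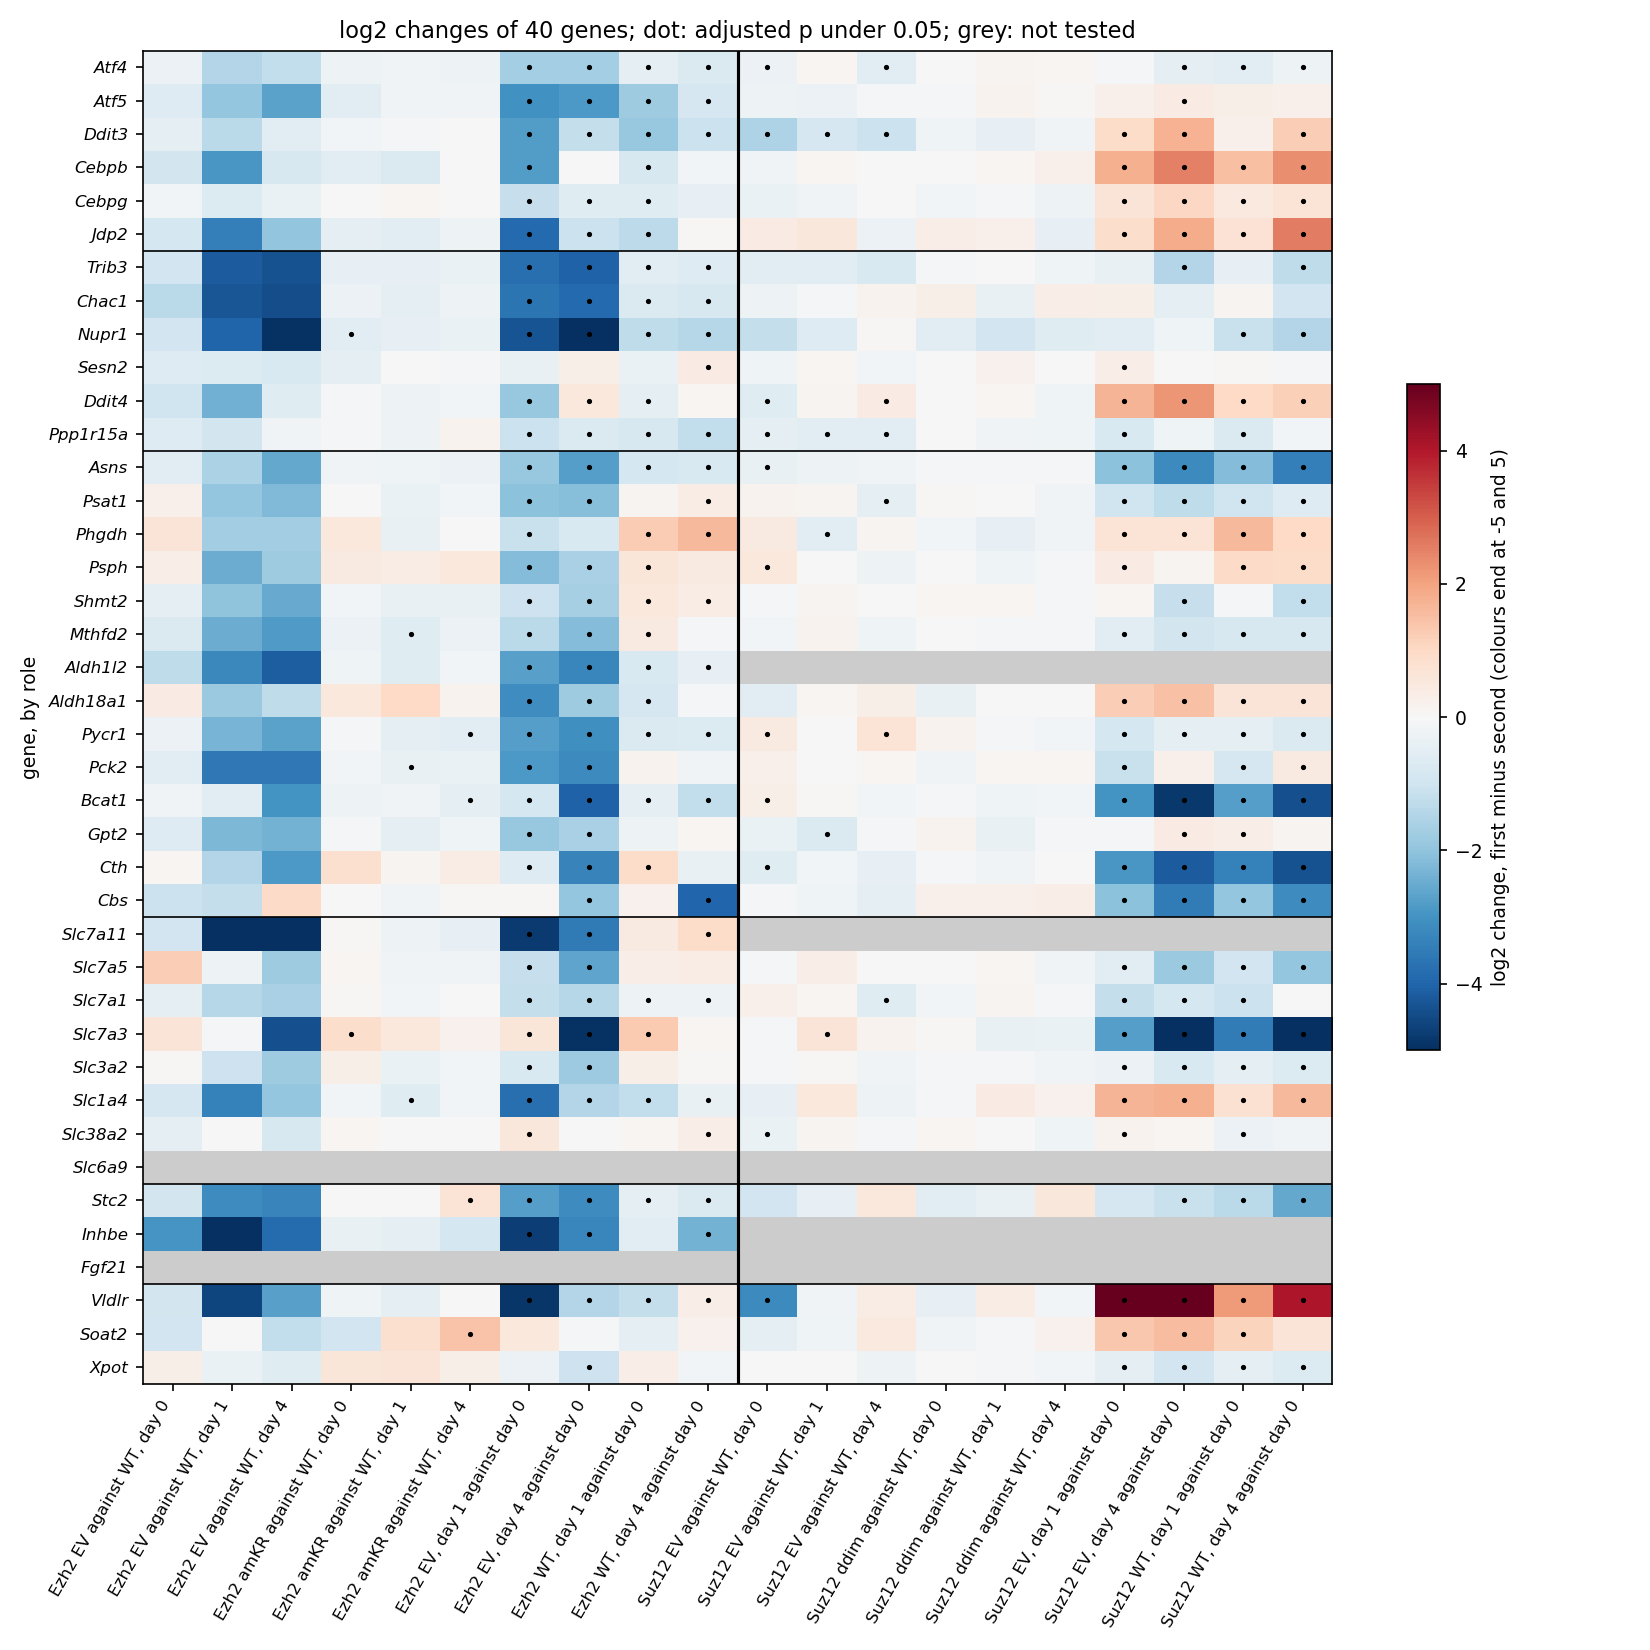
Log2 change (colour; blue lower, red higher, ending at -5 and 5) of the 40 genes by role in 20 comparisons of both series, with a dot for an adjusted p under 0.05 and grey for genes that were not tested. The Ezh2 EV against WT columns carry no dots because that contrast chose the genes and was not tested; they are nearly all blue on days 1 and 4, with medians of -1.94 and -2.10, while the columns for amKR and ddim are pale.

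In WT of the Suz12 series, no library of which entered the choice of genes, the ranges of genes with and without the core overlapped widely. From day 0 to day 1 the 9 tested genes with the core had a median log2 change of -0.41 (range -2.16 to 2.13) and the 22 with a window but no core -0.19 (range -2.76 to 1.64). By day 4 the medians were -0.72 (range -3.40 to 4.05) and -0.10 (range -4.39 to 2.32). These medians are descriptions, and the difference between them was not tested.

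The libraries labelled EV entered the choice of genes, so their time course is given as a description. From day 0 to day 1, 29 of the 38 genes were lower by more than 1 on the log2 scale. That count is given without the share of all genes, and nothing is read from it. An adjusted p under 0.05 was reached by 32 genes downward and 2 upward on day 1, where 23.2% and 23.9% of all genes did so, and by 32 and 1 on day 4, against 30.9% and 30.2%, and nothing is read from these counts. The medians were -1.90 and -1.78. The largest changes on day 1 were in Vldlr (-4.87), Slc7a11 (-4.77), Inhbe (-4.70, resting on 1 count on day 1 against 34 on day 0, a ratio of 34.7 with an interval of 5.83 to 1410), Nupr1 (-4.32), Jdp2 (-3.87) and Trib3 (-3.78). Slc7a3 and Slc38a2 were higher on day 1 (0.59 and 0.57). By day 4 Nupr1 (-5.37), Slc7a3 (-4.94), Bcat1 (-4.06), Trib3 (-4.05), Chac1 (-3.87) and Slc7a11 (-3.52) had the lowest values, whereas Cebpb, at 11.2, 7.77 and 9.18 CPM on day 0 and 2.11, 0.678 and 1.2 CPM on day 1, was back at 10.7, 7.97 and 9.26 CPM.

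In WT cells of the Ezh2 series these genes moved in both directions. On day 1, 20 of 38 were lower and 6 higher by edgeR, where 24.2% of all genes were lower and 22.5% higher, with a median of -0.48 against -0.02 over all genes. These WT libraries are also the reference of the contrast that chose the genes. Over the same days the summed stem cell markers of WT went from 3880 to 4500 CPM on day 0 to 2080 to 2310 and then 141 to 153 CPM, and those of primitive endoderm from 112 to 129 to 23.8 to 28.9 and then 1650 to 1940 CPM; their part was not tested. All 6 transcription factors were called lower, among them Ddit3 by 1.89 on the log2 scale (SE 0.23, edgeR adjusted p = 1.51e-07), Atf5 by 1.77 (SE 0.22, adjusted p = 1.72e-07), Jdp2 by 1.32, and Atf4 by 0.50 (SE 0.13, adjusted p = 0.00237). Of the 6 stress effectors 5 were lower and 0 higher, with Nupr1 down by 1.28, Chac1 by 0.72 and Trib3 by 0.58. Slc1a4, a transporter of neutral amino acids, fell by 1.24 and Vldlr by 1.21. The 14 enzymes split, with 5 higher and 5 lower. Phgdh rose by 1.27 (SE 0.37, edgeR adjusted p = 0.0058), Cth, of cysteine synthesis, by 0.91, Psph, which completes serine synthesis, by 0.62, Shmt2, which splits serine to glycine, by 0.51, and Mthfd2, of the mitochondrial folate cycle, by 0.43 (SE 0.10, adjusted p = 0.000534). Asns fell by 0.88 and Aldh1l2 by 0.77. Slc7a3 rose by 1.32 (SE 0.22, adjusted p = 1.38e-05). Psat1 and Slc7a11 were not called (0.15 and 0.43, adjusted p = 0.312 and 0.0682). Leaving out 1 library ended the calls of Cebpb (adjusted p up to 0.0535), Cebpg (up to 0.0684), Slc7a1 (up to 0.0589), Psph (up to 0.0757) and Aldh18a1 (up to 0.121).

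By day 4, 16 of 38 genes were lower in WT than on day 0 and 7 higher, where 27.6% and 29.8% of all genes were, with a median of -0.15 against 0.01 over all genes. Cbs fell by 3.95 (SE 0.29, edgeR adjusted p = 1.57e-12), Inhbe by 2.37, Nupr1 by 1.41, Bcat1, which transaminates branched-chain amino acids, by 1.25, Ppp1r15a by 1.22 and Ddit3 by 1.07 (SE 0.21, adjusted p = 0.00011). Atf4 fell by 0.74, Trib3 by 0.64, Chac1 by 0.80 and Asns by 0.75. Phgdh rose by 1.64 and Slc7a11 by 0.91 (SE 0.19, adjusted p = 0.00017), and Sesn2, Psat1, Shmt2 and Slc38a2 rose by 0.42, 0.36, 0.36 and 0.35. Without replicate 3 of WT on day 0 the count of higher genes was 4. The calls of Sesn2, Psat1, Shmt2 and Vldlr (0.34) each ended on leaving out 1 of several libraries, with adjusted p up to 0.119, 0.0957, 0.133 and 0.208.

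**Figure D2:**
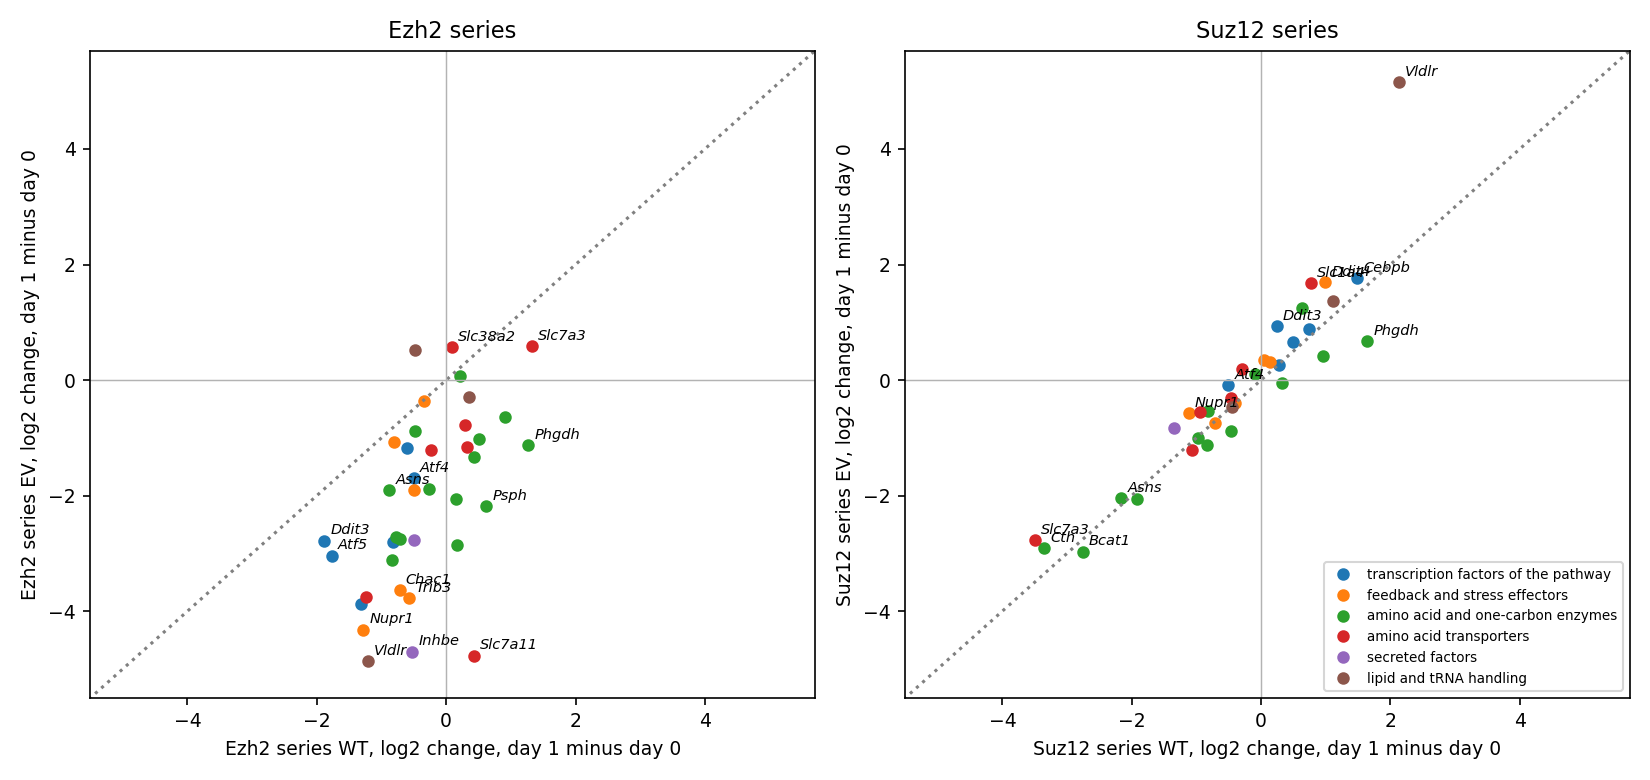
Log2 change from day 0 to day 1 in the EV line (vertical) against the WT line (horizontal) for the tested genes, coloured by role, in the Ezh2 series (left) and the Suz12 series (right); the dotted line marks equal change. On the left most points lie far below the line, Trib3 at -3.78 against -0.58 and Asns at -1.90 against -0.88, and on the right they lie close to it, Asns at -2.04 against -2.16.

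The automethylation mutant amKR was compared with WT on each day. By edgeR 1 gene was higher and 1 lower on day 0 (3.01% and 2.09% of all genes), 0 higher and 3 lower on day 1 (1.37% and 0.632%), and 2 higher and 2 lower on day 4 (1.17% and 0.454%). This comparison shares its WT libraries with the contrast that chose the genes. Mthfd2 on day 1 stood at 358, 295 and 361 CPM in amKR and at 540, 516 and 507 CPM in WT. The groups do not overlap, and the change of -0.62 (SE 0.10, edgeR adjusted p = 0.000748) was the 1 call of the 9 that held under every alternative tried. Asns, Mthfd2 and Bcat1 lie on chromosome 6, whose genes as a whole had a median of -0.18, -0.09 and -0.15 in amKR against WT on the 3 days. With that median taken off, Bcat1 lost its call on day 4. Primitive endoderm markers summed to 34.1 to 50.3 CPM in amKR against 23.8 to 28.9 CPM in WT on day 1 and to 2220 to 2380 against 1650 to 1940 CPM on day 4, and their part in these calls was not tested. The medians over the 38 genes were -0.11, -0.24 and -0.12, against -0.02, 0.02 and 0.00 over all genes tested, and 12, 18 and 13 of the 38 genes had an unadjusted p under 0.05, where 21.3%, 17.9% and 11.7% of all genes did.

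The other amKR calls were small or rested on few libraries. Slc7a3 was higher on day 0 (191, 176 and 181 against 112, 63.2 and 119 CPM, 0.89 with SE 0.22, edgeR adjusted p = 0.0183), and without WT replicate 2 its adjusted p was 0.144. Nupr1 was lower on day 0 (-0.53, adjusted p = 0.0356, up to 0.205 with 1 library left out). Slc1a4 (-0.60) and Pck2 (-0.37) were lower on day 1, and each lost its call whichever of the 6 libraries was left out. On day 4 Stc2 was higher (39.4, 43.3 and 37.7 against 24.4, 25.6 and 24.4 CPM, 0.69 with SE 0.15, adjusted p = 0.00889, up to 0.0636 without amKR replicate 2). Soat2 was higher too (8.36, 12.8 and 10.2 against 3.1, 3.75 and 4.67 CPM, 1.44 with SE 0.36, adjusted p = 0.0337, up to 0.191). Pycr1, of proline synthesis, was lower (-0.56, adjusted p = 0.0488, up to 0.25), as was Bcat1 (-0.45, adjusted p = 0.0131, up to 0.0772). Atf4, Trib3 and Chac1 were not called on any day: Atf4 differed by -0.27, -0.18 and -0.26, Trib3 by -0.40, -0.42 and -0.33, and Chac1 by -0.28, -0.50 and -0.27.

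The Suz12 series was scaled on its own, so levels set beside the Ezh2 series are descriptions. Of 37 genes with at least 5 CPM in WT of the Ezh2 series on day 0, 24 were at least 2 times as high there as in WT of the Suz12 series, 11 at least 10 times, and 6 were lower. Trib3 stood at 9.13, 10.2 and 7.43 CPM in WT of the Suz12 series on day 0, Chac1 at 2.15, 3.48 and 3.45, Nupr1 at 4.57, 5.09 and 2.12, and Slc7a11 at 1.34, 1.61 and 0.265. These effectors were thus low in that series before retinoic acid was added. Atf4 stood at 358, 374 and 382 CPM in WT and at 295, 301 and 305 CPM in EV on day 0, then at 295, 280 and 210 and at 274, 300 and 272 CPM on day 1, and at 317, 307 and 303 and at 220, 206 and 219 CPM on day 4. Psat1 stood at 123, 113 and 120 CPM in WT on day 0, 62.1, 53.7 and 64.6 on day 1, and 73.4, 76.1 and 74.9 on day 4.

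From day 0 to days 1 and 4, these genes moved in both directions in the Suz12 series. No library of this series entered the choice of genes. Retinoic acid, the absence of LIF and the inhibitors, and time in culture changed together and cannot be told apart. In WT, 18 of 35 genes were lower and 11 higher on day 1, against 29.2% and 32.9% of all genes, and 16 were lower and 11 higher on day 4, against 36.5% and 37.1%. Of 13 enzymes 8 were lower and 4 higher on each day, and of 6 transporters 5 were lower and 1 higher on day 1 and 3 and 1 on day 4. The cells changed in other ways over these days: markers of embryonic stem cells summed to 3360 to 3450 CPM on day 0, 459 to 819 on day 1 and 85.8 to 98.6 on day 4. Those of primitive endoderm summed to 20.1 to 27.9, 853 to 925 and 1570 to 1660 CPM, and those of fibroblasts and feeder cells to 8.33 to 12.2, 74.1 to 76.4 and 1440 to 1600 CPM. The part of these markers in the changes was not tested. The 6 largest falls were those of Slc7a3, Cth, Bcat1, Asns, Cbs and Stc2 on both days. Slc7a3 went from 184, 202 and 259 CPM to 18.7, 20.1 and 18 on day 1 and 0.932, 0.705 and 1.86 on day 4, changes of -3.50 and -7.49 (SE 0.12 and 0.19, edgeR adjusted p = 5.96e-28 and 3.48e-33). Asns went from 447, 438 and 380 CPM to 95.7, 87 and 101 and then 39.1, 42.5 and 38.4, changes of -2.16 and -3.40. Its falls leave no overlap between days. Cth changed by -3.36 and -4.34, Bcat1 by -2.76 and -4.39, Cbs by -1.92 and -3.13, and Stc2 by -1.35 and -2.56.

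The rises in that series were led by Vldlr, at 1.34, 1.07 and 0.796 CPM on day 0, 5.71, 4.16 and 4.43 on day 1 and 20.3, 17.2 and 17.2 on day 4 (2.13 and 4.05, edgeR adjusted p = 7.81e-06 and 7.09e-16). On day 1 Phgdh (1.64), Cebpb (1.49), Soat2 (1.11), Ddit4 (0.99) and Psph (0.95) followed, Soat2 losing its call without any of 4 libraries (adjusted p up to 0.132). On day 4 Jdp2 (2.55), Cebpb (2.32), Slc1a4 (1.62), Ddit3 (1.24, adjusted p = 4.12e-06) and Ddit4 (1.21) did. Ddit3 rose from 4.83, 7.49 and 5.84 CPM to 13.5, 13.4 and 16.3 CPM. Ddit3, Jdp2 and Cebpb therefore rose over 4 days while Trib3 fell by 1.28 and Nupr1 by 1.46.

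The EV line of the Suz12 series went through the same days with 14 of 35 genes lower and 13 higher on day 1 (29.3% and 32.7% of all genes) and 16 lower and 12 higher on day 4 (35.9% and 38.5%). Its largest falls were Slc7a3 (-7.26), Bcat1 (-4.82), Cth (-4.15), Cbs (-3.48), Asns (-3.20) and Slc7a5 (-1.87) on day 4. On day 1 these were Bcat1 (-2.97), Cth (-2.91), Slc7a3 (-2.77), Cbs (-2.05), Asns (-2.04) and Slc7a1 (-1.21). Rises on day 1 were led by Vldlr (5.16), Cebpb (1.76), Ddit4 (1.70), Slc1a4 (1.68), Soat2 (1.36) and Aldh18a1 (1.24), and on day 4 by Vldlr (7.62), Cebpb (2.53), Ddit4 (2.22), Jdp2 (1.87), Slc1a4 (1.77) and Ddit3 (1.74). The Vldlr values rest on 1 count in EV on day 0, with ratios of 47.5 (interval 8.19 to 1910) on day 1 and 262 (46.7 to 10400) on day 4. Atf4 was not called on day 1 (-0.09, edgeR adjusted p = 0.368) and fell by 0.48 by day 4.

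Loss of Suz12 was compared with the WT add-back on each day. On day 0, 8 genes were lower in EV and 3 higher (5.36% and 5.44% of all genes), on day 1, 4 and 1 (4.12% and 3.97%), and on day 4, 5 and 2 (3.73% and 3.66%). Primitive endoderm markers summed to 699 to 714 CPM in EV against 853 to 925 in WT on day 1 and to 1360 to 1400 against 1570 to 1660 on day 4, and neural progenitor markers to 128 to 139 against 174 to 198 CPM on day 4; their part was not tested. Ddit3 was lower on all 3 days: 2.93, 1.6 and 1.62 CPM in EV against 4.83, 7.49 and 5.84 in WT on day 0 (-1.55, SE 0.33, edgeR adjusted p = 0.000944). On day 1 it was at 4.02, 4.33 and 3.47 against 6.85, 6.71 and 7.81 CPM (-0.85, SE 0.26, adjusted p = 0.0325, up to 0.136 with 1 library left out and 0.0571 in DESeq2). On day 4 it was at 7.37, 6.89 and 6.47 against 13.5, 13.4 and 16.3 CPM (-1.06, SE 0.21, adjusted p = 0.000727). The lines do not overlap on any day. Ppp1r15a was also lower on each day (-0.48, -0.51 and -0.55, adjusted p = 0.0247, 0.0354 and 0.0105), and these calls ended on leaving out any of 4, 5 and 2 single libraries (adjusted p up to 0.142, 0.122 and 0.103).

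Atf4 was lower in that EV line on days 0 and 4, by -0.31 and -0.52 (SE 0.09 each, edgeR adjusted p = 0.0158 and 5.08e-05), the day 0 call ending without any of 3 libraries (up to 0.0623). Day 0 also showed lower Cth (-0.60), Ddit4 (-0.59), Asns (-0.36), Slc38a2 (-0.33) and Vldlr, the last resting on 1 count in EV against 12 in WT (ratio 12, interval 1.77 to 512). The Vldlr call ended in DESeq2 (adjusted p = 0.0569) and in edgeR with only the groups compared (adjusted p = 0.0679). Psph (0.52), Pycr1 (0.44) and Bcat1 (0.28) were higher on day 0, and without 1 library their adjusted p reached 0.182, 0.144 and 0.0531. On day 1 Gpt2, an alanine aminotransferase, was lower (-0.71, adjusted p = 0.000807), Phgdh was lower (-0.54, adjusted p = 0.0166, 0.472 without WT replicate 3), and Slc7a3 was higher (0.66, adjusted p = 0.00195). On day 4 Slc7a1, an arginine importer, was lower (65.2, 62 and 71.6 against 103, 99.9 and 100 CPM, -0.61, adjusted p = 1.96e-05), Psat1 was lower (-0.45), and Pycr1 (0.68) and Ddit4 (0.42) were higher. None of Trib3, Chac1, Nupr1 and Asns was called lower on day 1 or 4: on day 4 the differences were -0.76, 0.18, 0.06 and -0.16. Group means in this series were only 1.55 to 3.68 CPM for Chac1 and 0.899 to 3.93 CPM for Nupr1. That of Trib3 was 2.15 CPM in EV on day 4. For these genes a missing call does not show that the lines were equal.

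The effect of EV itself changed from day 0 to day 4 for 5 of 35 genes, 2 upward and 3 downward (3.57% and 3.36% of all genes). Ddit4 moved by 1.01 (SE 0.13, edgeR adjusted p = 9.15e-07), from lower in EV (63.2, 66.5 and 61.6 against 108, 90.7 and 89.2 CPM) to higher (305, 307 and 279 against 231, 222 and 214 CPM). Slc7a1 moved by -0.86 (SE 0.13, adjusted p = 1.91e-05), Psph by -0.79 (adjusted p = 0.0224, up to 0.079 with 1 library left out) and Psat1 by -0.61 (adjusted p = 0.0024). Vldlr moved by 3.57 (adjusted p = 0.0118), which rests on the 1 count of EV on day 0. Without replicate 3 of EV on day 0 its adjusted p was 0.0546 and the count of genes moving upward was 1.

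The dimerization mutant ddim gave 0 calls among the 35 genes in either direction on any of the 3 days by edgeR, and 0 by DESeq2. Over all genes, 0% and 0% were called higher and lower on day 0, 0.0277% and 0.0346% on day 1, and 0.0831% and 0.0623% on day 4. An unadjusted p under 0.05 was found for 0, 5 and 5 of the 35 genes, and for 3.68%, 9.87% and 8.6% of all genes. Atf4 stood at 314, 358 and 420 CPM in ddim on day 0, 281, 280 and 312 on day 1, and 318, 347 and 334 on day 4, overlapping WT on days 0 and 1 and lying just above it on day 4. Asns stood at 428, 434 and 364 CPM, then 97.3, 82.6 and 84.3, then 38.5, 37.4 and 39.6, close to its WT libraries on each day. Without WT replicate 1 on day 1, 1 gene was called lower.

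Other gene lists, which hold none of the 40 genes, were tested by edgeR between labelled EV and WT of the Ezh2 series. These are the libraries of the contrast that chose the 40 genes, and the lists were chosen with earlier results of these data known. The tests are therefore not independent of that contrast. Genes called lower there made up 7.63% of all genes on day 1 and 8.24% on day 4, and genes called higher 13.5% and 9.74%. Of 20 cytosolic aminoacyl-tRNA synthetases, which charge tRNAs and are known ATF4 targets in part, 15 were lower on each day and 0 higher, with medians of -0.83 and -1.0 against 0.07 and 0.01 over all genes. Nars, for asparagine, stood at 384, 378 and 424 CPM in labelled EV and 1600, 1450 and 1560 CPM in WT on day 1 (-1.96, SE 0.09, adjusted p = 4.12e-15). Cars, for cysteine, differed by -1.92 and -2.21 on the 2 days (adjusted p = 1.97e-13 and 1.6e-14) and Gars, for glycine, by -1.98 on day 4. On day 0 the list was mixed, with 5 lower and 3 higher. In labelled EV over time 13 synthetases fell and 4 rose on day 1, where 23.2% and 23.9% of all genes did, and in WT of the Suz12 series 18 fell and 2 rose by day 4, where 36.5% and 37.1% did.

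Enzymes and transporters of amino acids outside the 40 genes went both ways. Of 23 other enzymes, 7 were higher and 4 lower in labelled EV on day 1 and 3 higher and 7 lower on day 4. Mthfd1l, of the mitochondrial folate cycle, differed by -1.45 and -1.49 (edgeR adjusted p = 7.52e-11 and 6.91e-11), Gldc, which cleaves glycine, by 1.09 on day 1, and Ass1, of arginine synthesis, by 2.27 on day 4. Of 16 other transporters tested, 2 were higher and 5 lower on day 1 and 2 and 4 on day 4. Slc1a5, a glutamine importer, differed by -2.00 and -2.52 (adjusted p = 1.37e-12 and 1.73e-14), Slc7a2 by 2.73 on day 1 and Slc7a7 by -2.49 on day 4.

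**Figure D3:**
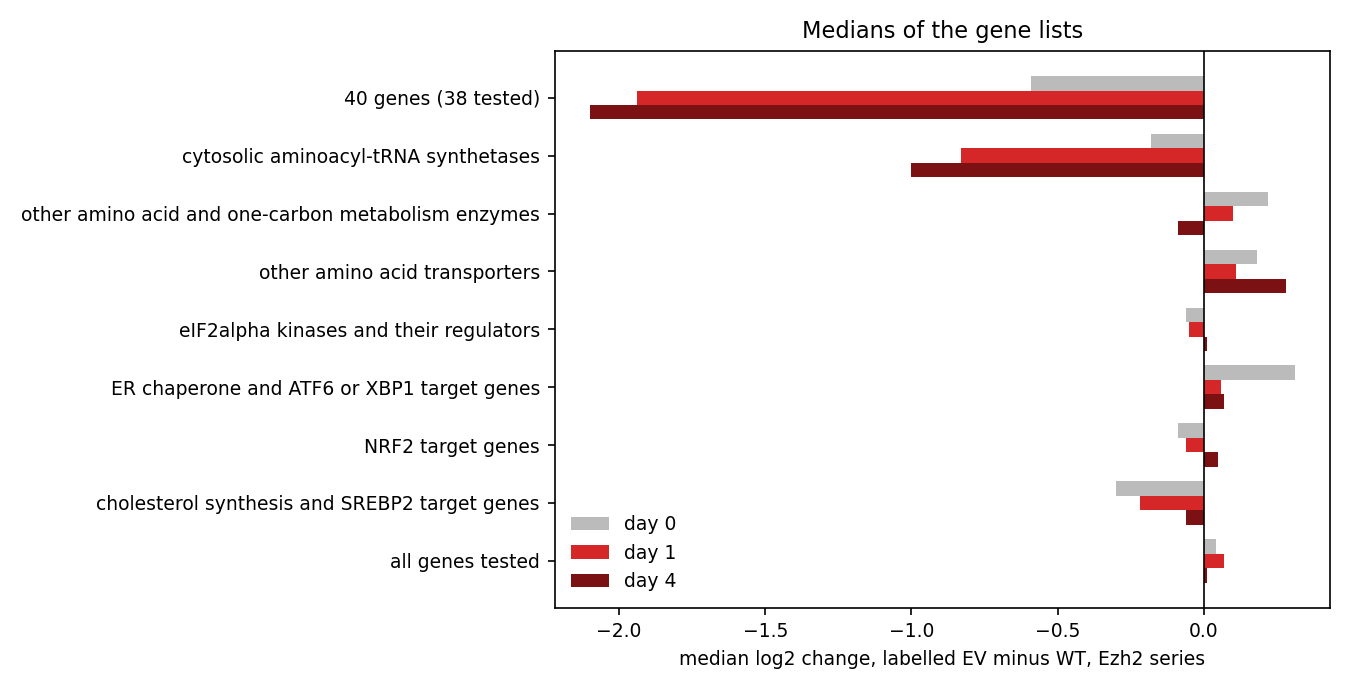
Median log2 difference between labelled EV and WT of the Ezh2 series (horizontal) for each gene list on days 0, 1 and 4 (bars). The 38 tested genes of the 40 reach -1.94 and -2.10 on days 1 and 4 and the tRNA synthetases -0.83 and -1.0. The other lists stay between -0.22 and 0.28 on those days.

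For genes upstream of ATF4 or in parallel arms of the stress response, the counts are given beside the shares of all genes above. Of 15 genes for eIF2alpha kinases and their regulators, 2 were higher and 0 lower on day 1 (7 at an unadjusted p under 0.05, as were 32.9% of all genes) and 1 and 1 on day 4. Impact, an inhibitor of GCN2, was at 155, 162 and 141 CPM in labelled EV against 118, 106 and 117 CPM in WT on day 1 (0.43, edgeR adjusted p = 0.00082) and differed by 0.52 on day 4 (adjusted p = 0.000105). Eif2s1, which is eIF2alpha itself, differed by 0.44 on day 1 and Eif2b5, a subunit of its exchange factor, by -0.48 on day 4. Of 20 genes for endoplasmic reticulum chaperones and targets of ATF6 or XBP1, 3 were higher and 1 lower on day 1 and 3 and 3 on day 4. The gene that stood out was Herpud1, which acts in disposal of misfolded proteins, at 4.68, 6.55 and 5.74 against 47.9, 51.3 and 48.2 CPM on day 1 (-3.11, adjusted p = 2.45e-13) and -2.18 on day 4. The others named by the same rule were Creld2 (0.46, day 1) and Pdia4 (-0.76, day 4).

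Targets of NRF2, the factor of oxidative stress, gave 2 higher and 3 lower of 17 on day 1 and 4 and 1 on day 4. They include Hmox1 (-0.97, day 1), Me1 (0.97, day 4) and Ftl1 (2.50 and 3.20 by edgeR, adjusted p = 0.0166 and 0.00908), whose near-identical copies make its counts uncertain. Of 21 cholesterol synthesis genes, 0 were higher and 4 lower on day 1 (Msmo1 by -1.22 and Pmvk by -0.85), and 0 were called by edgeR on day 4, when 3 had an unadjusted p under 0.05, as did 30% of all genes.

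Markers of cell types also differed between labelled EV and WT, though not in the same direction for each list and day. All 8 markers of primitive endoderm were called higher in labelled EV than in WT on day 1 by edgeR (median 4.30), and their summed level was 169 to 183 CPM against 23.8 to 28.9 CPM, with Foxa2 at 0 counts in WT. Gata6, a defining factor of that lineage, was at 68.1, 71.2 and 59.4 CPM against 2.25, 4.31 and 3.81 CPM. On day 4 the sum was 1190 to 1440 CPM in labelled EV and 1650 to 1940 CPM in WT, the opposite order to day 1. Markers of embryonic stem cells, which define the labelled cell type, summed to 2190 to 2480 CPM in labelled EV and 2080 to 2310 CPM in WT on day 1, and to 115 to 158 and 141 to 153 CPM on day 4. Markers of fibroblasts and feeder cells summed to 15.6 to 18.8 CPM in labelled EV against 3.18 to 4.52 CPM in WT on day 0. The sums were 18 to 21.5 against 8.4 to 13.3 CPM on day 1 and 303 to 323 against 226 to 278 CPM on day 4, without overlap on each day. Single markers did not all follow their sum. On day 0 only Thy1 and Fbn1 were called higher. On day 4 Col1a1 (0.81) and Thy1 (2.61) were called higher, Dcn was called lower (-1.49, edgeR adjusted p = 0.000121), and the others tested were not called. Those of neural progenitors summed to 43.8 to 50.6 against 46.1 to 50.3 CPM on day 0, and were lower without overlap on day 1 (39.5 to 45.4 against 57.9 to 67.9 CPM) and day 4 (155 to 208 against 217 to 275 CPM). The part of these markers in the result was not tested.

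The authors' deposited table of gene symbols for the comparison of WT and KO holds 29 of the 40 genes among 288 listed as down on day 1 and 28 among 244 on day 4. The authors' deposited list for day 0 holds 6 among 395 down (Aldh1l2, Cbs, Chac1, Ddit4, Inhbe and Nupr1) and Slc7a5 among 1004 up. In the authors' deposited lists for WT and amKR, 1 of the 40 genes appears, Soat2 among 61 listed as up on day 4. No test or direction is stated with these lists. The comparison of WT and KO is by its name the contrast that chose the 40 genes. The choice therefore favoured the overlap, and nothing is read from these counts.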

How the data were processed

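The authors deposited whole-number counts per Ensembl gene for each of 54 libraries, and 12 lists of gene symbols (unit: other, no number attached). The genome build is mm10 per the submitters' processing notes; aligner, counter and annotation are not given in the sources used here. Total reads were almost level within a series (7996693 to 8002940 and 6997715 to 7001555), and special rows (no feature, ambiguous, not unique) took 36.13% to 47.21% and 36.26% to 45.7% of them; they stayed out of library sizes and tests. IDs were matched to symbols for 55141 of 55487 genes. Ddit3 has a second ID with 0 counts, which was dropped.

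Each series was fitted on its own over 27 libraries in R 4.3.3 with edgeR 4.0.16 (filterByExpr, TMM, quasi-likelihood, a mean for each group); 14086 and 14442 genes were tested, two-sided, with Benjamini-Hochberg adjustment over all of them, checked on simulated data. Ratios against a group with 1 to 3 counts carry exact counting intervals, which cover counting error only. The alternatives were DESeq2 1.42.0, RLE scaling, no filter, only the groups compared, a replicate block, an offset by chromosome median and leaving out each library. Same-numbered libraries deviated together for 2 of the 36 group pairs of the Ezh2 series, among them labelled EV on days 0 and 1 (correlations 0.633, 0.459 and 0.65), and for 0 of the 36 of the Suz12 series. Libraries of a group always differed by more than sampling noise, which would give a chi-square per degree of freedom near 1. In the Ezh2 series the highest values were those of labelled EV replicate 2 on day 4 (42.758 and 25.664, against 8.616 for the other pair). In the Suz12 series they were those of WT replicate 3 on day 1 (8.571 and 10.009, against 2.111), a group that is the reference for EV and ddim on that day.

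The 40 genes and the lists were chosen with earlier results of these data known. Named are Atf4, Ddit3, Trib3, Chac1, Asns, Psat1 and Slc7a11, up to 6 called genes each way with the largest log2 change per comparison, the 8 largest falls in the contrast that chose the genes, and up to 2 called genes per list. Sequences come from RefSeq (GRCm38.p6), gene positions from the mm10 annotation GENCODE vM21.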

Additional observations from a re-analysis of the deposited data

Results flagged for a closer look

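Groups of 3 libraries are too small to test for a library that stands apart, so what is listed here are genes that moved in opposite directions in 2 lines over the same days, with every library of the later day on the stated side of day 0 in each line. Unless a p-value is given, the difference between the lines was not tested. The share of all genes that were opposed in this way was not counted, so nothing is read from the counts of opposed genes. Values are log2 changes from day 0.

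Within the Ezh2 series, 4 of the 14 enzymes were higher in WT on day 1 and lower in labelled EV. Phgdh moved by -1.12 in labelled EV and 1.27 in WT, Psph by -2.18 and 0.62, Shmt2 by -1.02 and 0.51, and Mthfd2 by -1.33 and 0.43. The WT call of Psph ended on leaving out 1 library (edgeR adjusted p up to 0.0757), and Psat1 was not called in WT on that day (0.15, adjusted p = 0.312). By day 4 the same held for Psat1 (-2.13 and 0.36), Shmt2 (-1.67 and 0.36), Slc7a11 (-3.52 and 0.91) and Vldlr (-1.46 and 0.34). The WT calls of Psat1, Shmt2 and Vldlr on day 4 each ended on leaving out 1 of several libraries. The labelled-EV libraries entered the choice of these genes.

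Between the WT lines of the Ezh2 and Suz12 series, scaled separately, 10 genes moved in opposite directions on day 1. The lines stood apart in cell type markers on that day: the Ezh2 line held primitive endoderm markers at a sum of 23.8 to 28.9 CPM and the Suz12 line at 853 to 925 CPM, and embryonic stem cell markers at 2080 to 2310 and 459 to 819 CPM. The part of these markers was not tested. Of 6 transcription factors 3, and of 6 stress effectors 1, were lower in the Ezh2 series and higher in the Suz12 series: Cebpb (-0.82 and 1.49), Cebpg (-0.60 and 0.49), Jdp2 (-1.32 and 0.74) and Ddit4 (-0.49 and 0.99). So were Aldh18a1, which makes proline precursors (-0.84 and 0.64), Slc1a4 (-1.24 and 0.77) and Vldlr (-1.21 and 2.13). Mthfd2 (0.43 and -0.82), Cth (0.91 and -3.36) and Slc7a3 (1.32 and -3.50) went the other way. By day 4 the genes were Ddit3 (-1.07 and 1.24), Psat1 (0.36 and -0.66), Shmt2 (0.36 and -1.22) and Slc1a4 (-0.39 and 1.62). Leaving out 1 library ended the Ezh2 WT calls of Cebpb, Cebpg and Aldh18a1 on day 1. On day 4 those of Psat1, Shmt2 and Slc1a4 ended for 2, 5 and 3 of the libraries left out.

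Between the EV lines of the 2 series, 11 genes were opposed on day 1, the Ezh2 series first: Ddit3 (-2.78 and 0.93), Cebpb (-2.80 and 1.76), Cebpg (-1.17 and 0.66), Jdp2 (-3.87 and 0.88), Ddit4 (-1.90 and 1.70), Phgdh (-1.12 and 0.67), Psph (-2.18 and 0.41), Aldh18a1 (-3.11 and 1.24), Slc7a3 (0.59 and -2.77), Slc1a4 (-3.76 and 1.68) and Vldlr (-4.87 and 5.16). By day 4 there were 7: Atf5 (-2.86 and 0.40), Ddit3 (-1.21 and 1.74), Cebpg (-0.61 and 1.02), Jdp2 (-1.06 and 1.87), Aldh18a1 (-1.76 and 1.46), Slc1a4 (-1.47 and 1.77) and Vldlr (-1.46 and 7.62). The Vldlr values of the Suz12 EV line rest on 1 count on day 0. Some of these calls ended on leaving out 1 library. On day 1 they were Phgdh and Slc7a3 in the Ezh2 series and Ddit3 and Psph in the Suz12 series. On day 4 they were Cebpg in the Ezh2 series and Atf5 in the Suz12 series.

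In the Suz12 series the difference between EV and WT changed from day 0 to day 4 by a tested interaction in edgeR for 5 genes: Ddit4 by 1.01 (adjusted p = 9.15e-07), Slc7a1 by -0.86 (adjusted p = 1.91e-05), Psat1 by -0.61 (adjusted p = 0.0024), Psph by -0.79 (adjusted p = 0.0224) and Vldlr by 3.57 (adjusted p = 0.0118).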

How the results depend on the processing

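The larger counts of called genes (above 7) held within 1.5 times under every alternative and no result reversed. Small counts moved. With DESeq2, amKR against WT gave 2 higher and 4 lower on day 0, 1 and 6 on day 1, and 4 lower on day 4. Without a filter on low counts, it gave 3 higher and 3 lower on day 0 and 3 and 5 on day 1, labelled EV gave 2 higher on day 4, and Suz12 EV against WT gave 1 higher on day 0 and 2 on day 1. With an offset by chromosome median, labelled EV gave 1 higher on day 1, amKR 1 lower on day 4, and Suz12 EV against WT 1 higher on day 0. With only the groups compared in the fit, amKR gave 6 higher and 6 lower on day 0 and 3 higher on day 1, labelled EV gave 2 higher on day 4, and Suz12 EV against WT gave 1 lower on day 1. The cause was not tested. RLE scaling moved none of these counts, and no scaling shifted the median of all genes by more than 0.049.

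With a replicate block, amKR against WT on day 0 gave 2 higher; the block moved no other count by more than 1.5 times. It ended 4 single calls: Aldh1l2 (Ezh2 WT, day 4, edgeR adjusted p = 0.0526), Pck2 (amKR, day 1, 0.0504), Pycr1 (Suz12 EV against WT, day 0, 0.052) and Gpt2 (Suz12 WT, day 1, 0.0505).

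Leaving out 1 library gave 4 to 6 higher in Ezh2 WT on day 4, 1 to 2 higher in labelled EV on day 1, and for amKR 0 to 1 higher and 0 to 1 lower on day 0, 1 lower on day 1, and 0 to 2 higher and 0 to 1 lower on day 4. It gave 0 to 1 lower for ddim on day 1, 0 to 2 higher on day 0 and 1 to 4 lower on day 1 for Suz12 EV against WT, and 1 to 2 higher for the change of that effect. Calls held under all alternatives for 20 of 26 genes in Ezh2 WT and 25 of 29 in Suz12 WT on day 1, and 0 of 2, 1 of 3 and 0 of 4 for amKR on days 0, 1 and 4. For Suz12 EV against WT they held for 5 of 11, 2 of 5 and 6 of 7 genes on those days. Depth limits the genes under about 5 CPM, among them Slc7a11, Inhbe and Vldlr in the groups where they were near 0. Chac1 and Nupr1 in the Suz12 series are others.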
